A study of Mus musculus with 3 samples.

Results

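The axon guidance ligands and receptors are the families of cell-surface and secreted proteins that steer growing axons: semaphorins with their plexin and neuropilin receptors, ephrins with their Eph receptors, Slits with Robo receptors, and netrins with Unc5 receptors. They were chosen by gene name, as every symbol beginning with Sema, Plxn, Eph, Efn, Slit, Robo, Ntn or Unc5 in the form these families use, plus Nrp1 and Nrp2. This gave 70 of the 23234 genes in each table. Of these, Unc50 and Unc5cl match by spelling alone. Unc50 encodes a membrane protein of intracellular trafficking, and Unc5cl a death-domain protein related in sequence to the Unc5 receptors, so 68 members are guidance genes.

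RNA-seq was made from 3 sorted cell populations of wild-type C57BL/6J mice aged 6 to 15 weeks, all given lipopolysaccharide (LPS), a bacterial cell wall component, into both nostrils (10 µg in 10 µL of PBS). DP cells were CD45+Ly6G+SiglecF+ and came from the nose on day 2 after LPS. Nasal neutrophils were CD45+Ly6G+SiglecF- and came from the nose on day 1, and blood neutrophils were sorted by the same markers from peripheral blood on day 1. Each population is 1 library, so differences come without any error between replicates and without a test. Tissue, day and sort gate cannot be told apart where they differ together, and how many mice were pooled is not given in the sources used here.

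Guidance proteins act mostly by contact or over short distances, and many work outside the nervous system. Class 4 and class 7 semaphorins are carried by leukocytes and bind plexins, integrins and other receptors on neighbouring immune cells. Ephrins, their Eph tyrosine kinase receptors, Slits and Robos sort the axons of olfactory sensory neurons on their way from the nose to the olfactory bulb in mice.

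Levels are FPKM, fragments scaled by transcript length and by sequencing depth, which allows genes to be compared per length. Differences are log2 ratios of (FPKM + 1), which understate the change of low genes. The limit for naming a gene higher or lower was 4-fold, meaning a log2 ratio of 2. Genes averaging at least 1 FPKM across the 3 libraries were compared, which held for 10719 genes and 15 members. Steps between low values put the depth near 54500000 fragments in DP, 12800000 in nasal and 53700000 in blood neutrophils, so 1 FPKM over a 1 kb transcript stands for some 55 fragments in DP, 13 in nasal and 54 in blood neutrophils. Low members are measured least well in nasal neutrophils. All 12 neutrophil markers checked reached 1 FPKM in the nasal libraries and 11 of 12 in blood neutrophils, where S100a8 was listed at 0. Of 9 eosinophil markers with a row, 3 reached 1 FPKM in DP, 4 in nasal and 4 in blood neutrophils. They summed to 179.2 FPKM in DP, 26.5 FPKM in nasal and 25.8 FPKM in blood neutrophils, most of it in DP from Siglec5, at 167.8 FPKM. Of the 4 compared, 1 was at least 4-fold higher in DP than in nasal neutrophils, Siglec5, and 1 lower, Ear2. Over all genes 8.42% were higher and 3.62% lower. Siglec5 is the older mouse symbol of Siglecf, the gene of the SiglecF protein used to sort DP. Its difference, and with it that of the sum, was therefore favoured in advance by the gate. Epx, the eosinophil peroxidase gene, was at 0 in all 3 libraries.

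Marker transcripts of nasal tissue were measured in both nasal libraries. The 17 olfactory neuron markers all reached 1 FPKM in DP, with a sum of 2086 FPKM, and in nasal neutrophils, with a sum of 1063 FPKM, against 2 markers and a sum of 5.58 FPKM in blood neutrophils. In blood, 8 of the 17 were at 0, among them Omp, the marker protein of mature olfactory neurons, which stood at 244 FPKM in DP and 233.6 FPKM in nasal neutrophils. The 15 nasal epithelium markers summed to 2616 FPKM in DP and 1970 FPKM in nasal neutrophils, against 1.61 FPKM in blood neutrophils, where 8 were at 0. In such bulk libraries fewer cells of a type and less RNA per cell cannot be told apart.

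Members differed in the CpG content of their promoters, shown here for the class 4 semaphorin genes Sema4a and Sema4d, the highest members in neutrophils, and for Plxnc1 and Efna5, which were highest in DP. The sequences are RefSeq windows of build GRCm38.p6, not the mm9 build of the authors' tables, and cover the 250 bases before a transcription start, 5′ to 3′ in the direction of the gene, with CpG dinucleotides in capitals. Where RefSeq lists several starts, the first listed is shown.
Sema4a (first of 4 listed starts, chr3:88461183-88461432, minus strand): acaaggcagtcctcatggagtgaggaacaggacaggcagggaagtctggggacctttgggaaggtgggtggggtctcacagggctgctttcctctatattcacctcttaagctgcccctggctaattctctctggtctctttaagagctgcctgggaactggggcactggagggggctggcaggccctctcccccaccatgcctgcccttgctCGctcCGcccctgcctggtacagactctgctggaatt
Sema4d (first of 3 listed starts, chr13:51748811-51749060, minus strand): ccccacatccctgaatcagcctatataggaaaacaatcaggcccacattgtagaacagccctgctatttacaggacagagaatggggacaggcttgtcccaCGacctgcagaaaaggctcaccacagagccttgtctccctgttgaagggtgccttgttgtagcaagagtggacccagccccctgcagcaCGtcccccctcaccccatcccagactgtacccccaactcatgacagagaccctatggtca
Plxnc1 (1 listed start, chr10:94944846-94945095, minus strand): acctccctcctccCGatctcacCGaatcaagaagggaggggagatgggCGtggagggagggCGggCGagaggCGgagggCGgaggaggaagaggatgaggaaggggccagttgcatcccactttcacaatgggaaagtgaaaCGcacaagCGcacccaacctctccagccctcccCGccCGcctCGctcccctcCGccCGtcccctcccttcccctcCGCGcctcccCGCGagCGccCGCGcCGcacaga
Efna5 (1 listed start, chr17:62881318-62881567, minus strand): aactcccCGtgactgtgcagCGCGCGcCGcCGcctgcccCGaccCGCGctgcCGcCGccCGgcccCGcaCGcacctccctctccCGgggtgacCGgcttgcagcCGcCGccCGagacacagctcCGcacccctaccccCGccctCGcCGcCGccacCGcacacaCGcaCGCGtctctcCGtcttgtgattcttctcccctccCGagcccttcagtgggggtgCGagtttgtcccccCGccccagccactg

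The windows of Sema4a and Sema4d shown hold 2 CpG each, against 22 in Plxnc1 and 32 in Efna5. Over all listed starts, Sema4d held 1 or 2 CpG and Sema4a 2, 3, 6 and 13. The median was 15 over the 77 listed starts of 61 members and 6 over all 32851 listed starts of the mouse table. Only 7 of the 61 members had no start above that median of 6, namely Ntn5, Plxnb3, Robo4, Sema3a, Sema3d, Sema4d and Sema4f, a share of 11.5% against 51.4% of all genes. Sema4d, the highest guidance member in DP and the next after Sema4a in both neutrophil libraries, was thus among the few with no CpG-rich start. The letters TGANTCA, the AP-1 site searched on both strands, were in 1 of the 3 Sema4d windows and in 6.75% of all windows, and TTGCNNAA, a C/EBP site, in 1 of the 4 Sema4a windows and in 9.56% of all. An NF-kappaB site was matched in 1 of the 4 Sema4a windows and in 3.90% of all. Over the 77 windows of members, AP-1 and C/EBP sites were each in 3, or 3.90%, below their shares of all windows, and NF-kappaB sites in 4, or 5.19%. None of the 3 sites was matched before Plxnc1, Efna5, Sema7a or Epha5, as was so for most of the 61 members. Such matches describe letters, not binding.

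**Figure D1:**
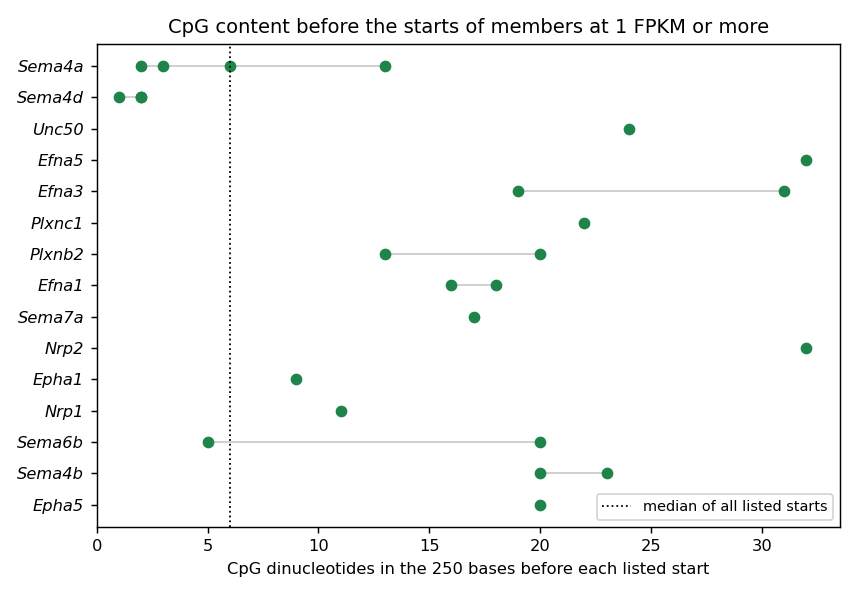
CpG dinucleotides in the 250 bases before each RefSeq start (x axis) of the 15 members with a mean of 1 FPKM or more, ordered from the highest mean at the top; each point is 1 listed start and the dotted line is the median of all starts, 6. All starts of Sema4d and 3 of the 4 starts of Sema4a lie at or left of the line, and Efna5 and Nrp2 lie farthest right, at 32.

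Semaphorins made up most of the guidance transcripts of neutrophils. Without Unc50 and Unc5cl, the members summed to 170.8 FPKM in DP, 544.3 FPKM in nasal neutrophils and 240.8 FPKM in blood neutrophils. Sema4a and Sema4d together were 47.9% of that sum for DP, 86.0% for nasal and 95.2% for blood neutrophils. In DP the next largest part was the 5 ephrin-A genes, at 29.5%, while they made up 5.06% for nasal and 0.0359% for blood neutrophils. Few other members reached 1 FPKM: of all 70, 14 did so in DP (20% of members, 48.6% of all genes), 18 in nasal (25.7% and 45.0%) and 5 in blood neutrophils (7.14% and 33.2%). In blood neutrophils 34 members were listed at 0. Of these, 18 reached 0.1 FPKM in both nasal libraries, 25.7% of members, where 9.86% of all genes had that pattern. Of the 70, 21 were highest in DP, 43 in nasal and 3 in blood neutrophils, and 3 were at 0 in all libraries. Over all genes the order differed, with 45.6% highest in DP, 25.2% in nasal and 13.4% in blood neutrophils.

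**Figure D2:**
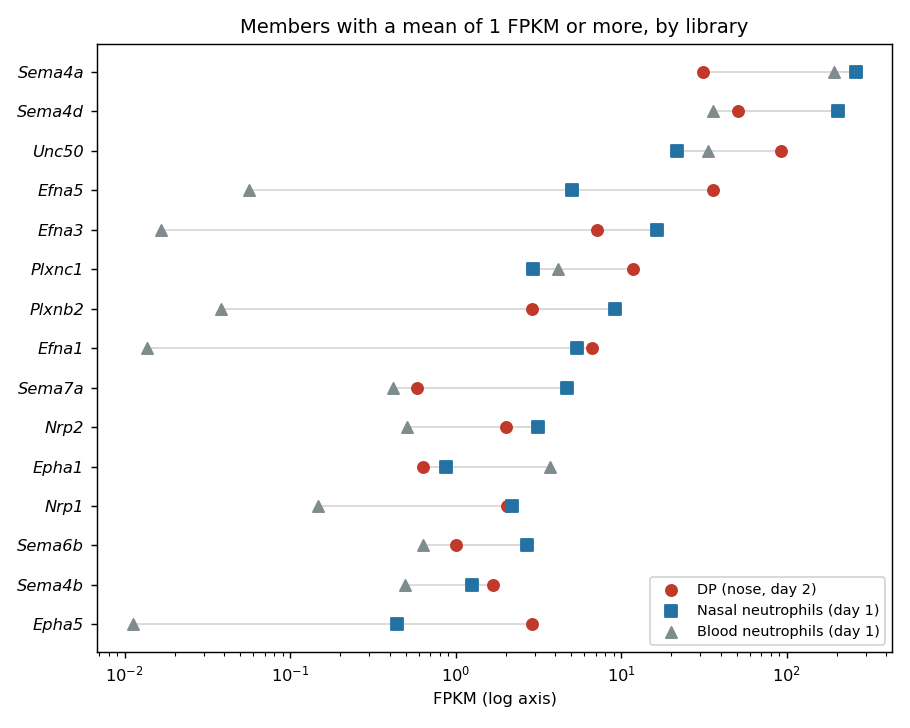
FPKM on a log axis of the 15 members with a mean of 1 FPKM or more, 1 row per gene, in DP (circles), nasal neutrophils (squares) and blood neutrophils (triangles); each symbol is 1 library. Sema4a and Sema4d stand above 30 FPKM in every library, while Efna1, Efna3, Efna5 and Epha5 lie under 0.1 FPKM in blood and between 0.44 and 36.1 FPKM in the nasal libraries.

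Class 4 semaphorins are membrane proteins, and several are carried by immune cells. Sema4a, which binds class B and D plexins and stimulates T cells, stood at 31.0 FPKM in DP, 263.3 FPKM in nasal neutrophils and 193.4 FPKM in blood neutrophils. It was low in DP and high in both neutrophil libraries, 8.48-fold lower in DP than in nasal neutrophils and 6.23-fold lower than in blood neutrophils. Sema4d, also called CD100, which binds plexin B1 and, on lymphocytes, CD72, stood at 50.8 FPKM in DP, 204.9 FPKM in nasal neutrophils and 35.8 FPKM in blood neutrophils. Its high library was nasal neutrophils alone, 4.03 times DP and 5.72 times blood. Its log2 ratio of DP over nasal neutrophils, -1.99, lay just inside the 4-fold limit. The order of the pair therefore turned: Sema4d was 1.64 times Sema4a in DP, 0.78 times in nasal neutrophils and 0.19 times in blood neutrophils.

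The other class 4 genes were far lower. Sema4b was at 1.68 FPKM in DP, 1.25 FPKM in nasal neutrophils and 0.50 FPKM in blood neutrophils. Sema4c, a ligand of plexin B2, was at 0.17 FPKM in DP and 1.91 FPKM in nasal neutrophils, with 0 listed for blood. Sema4f was at 0.11 FPKM in DP, 0.92 FPKM in nasal neutrophils and 0.39 FPKM in blood neutrophils. Sema4g stood at 0.090 FPKM in DP and 0.68 FPKM in nasal neutrophils and at 0 in blood. Of the 6 class 4 genes, 5 were lower in DP than in nasal neutrophils, Sema4b being the exception, and its log2 ratio of 0.25 turned to -0.32 with ratios centred on the median of all genes and to -0.14 with upper-quartile scaling. Of the olfactory neuron markers, 13 of 17 were higher in DP, as were most of all genes compared, whose median log2 ratio was 0.57. Of the neutrophil markers, 7 of 12 were at least 4-fold lower in DP and 0 higher, where 3.62% and 8.42% of all genes were. Their sums, 12837 FPKM in DP and 58580 FPKM in nasal neutrophils, came mostly from S100a8 and S100a9. Csf3r, Cxcr2 and Mmp9 differed less, with log2 ratios of -0.06, -0.46 and -0.63. The part of neuronal or neutrophil RNA in the class 4 values was not tested.

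Of the other membrane semaphorins, Sema7a was the highest, in nasal neutrophils. It encodes a lipid-anchored semaphorin that binds plexin C1 and beta1 integrins, and stood at 0.58 FPKM in DP, 4.72 FPKM in nasal neutrophils and 0.42 FPKM in blood neutrophils. It was thus 8.14-fold lower in DP than in nasal neutrophils, and 11.4-fold higher in nasal than in blood neutrophils, on about 100, 200 and 74 fragments. Sema6b, a ligand of class A plexins, was at 1.00 FPKM in DP, 2.71 FPKM in nasal neutrophils and 0.64 FPKM in blood neutrophils. Sema6a was at 0.82 FPKM in both nasal libraries and at 0 in blood. Sema5a, Sema5b, Sema6c and Sema6d stayed at or under 0.21 FPKM throughout. The 7 secreted class 3 semaphorins, which repel axons through neuropilins and class A plexins, reached at most 0.74 FPKM in DP (Sema3a), 0.36 FPKM in nasal neutrophils (Sema3e) and 0.10 FPKM in blood neutrophils (Sema3e).

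Among the plexin and neuropilin genes, Plxnc1 was the one above 1 FPKM in all 3 libraries. Plxnc1, which encodes the plexin that binds Sema7a, stood at 11.8 FPKM in DP, 2.93 FPKM in nasal neutrophils and 4.17 FPKM in blood neutrophils. DP was the high library, 4.03 times nasal and 2.83 times blood neutrophils, with a log2 ratio of 1.70 over nasal neutrophils. Ligand and receptor thus lay in opposite order in the nasal libraries, Sema7a being higher in nasal neutrophils and Plxnc1 in DP. Plxnb2, a receptor of class 4 semaphorins, stood at 2.89 FPKM in DP, 9.20 FPKM in nasal neutrophils and 0.038 FPKM in blood neutrophils, where it rested on about 13 fragments. Plxnd1, a plexin of endothelium and of some leukocytes, was at 0.045 FPKM in DP, 1.78 FPKM in nasal neutrophils and 0.0076 FPKM in blood neutrophils. It was 39.5-fold lower in DP than in nasal neutrophils, the widest gap among members above 0 in both, on about 17 and 160 fragments, and it did not pass the filter.

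The 4 class A plexins, the signalling partners of neuropilins, were low and had the same order in every case. Plxna1 was at 0.20 FPKM in DP and 1.26 FPKM in nasal neutrophils, and Plxna3 at 0.73 FPKM in DP and 1.57 FPKM in nasal neutrophils. Plxna2 and Plxna4 lay between 0.16 and 0.37 FPKM in these libraries, and all 4 were listed at 0 in blood. Plxnb1, the Sema4d receptor, was at 0.44 FPKM in DP and 0.69 FPKM in nasal neutrophils and also at 0 in blood. Plxnb3 was at 0.75 FPKM in DP, 0.35 FPKM in nasal neutrophils and 0.22 FPKM in blood neutrophils. Nrp1, a co-receptor of class 3 semaphorins and of vascular growth factor, was near equal in the nasal libraries, at 2.04 FPKM in DP and 2.19 FPKM in nasal neutrophils, against 0.15 FPKM in blood neutrophils. Nrp2 was at 2.03 FPKM in DP, 3.13 FPKM in nasal neutrophils and 0.51 FPKM in blood neutrophils. The 12 endothelium markers, among which is the member Robo4, summed to 24.99 FPKM in DP, 31.0 FPKM in nasal neutrophils and 5.99 FPKM in blood neutrophils, where 7 of them, Cdh5 included, were at 0. Macrophage and monocyte markers, 13 with a row, summed to 476.7 FPKM in DP, 834.6 FPKM in nasal neutrophils and 569.5 FPKM in blood neutrophils. Of these 13, 6 were at 0 in blood, among them C1qa, C1qb and C1qc, genes of complement C1q made by macrophages. Of the 10 that passed the filter, 6 were at least 4-fold higher in nasal than in blood neutrophils and 0 lower, where 13.1% and 3.23% of all genes were. Emr1, at 59.9 FPKM in nasal and 78.8 FPKM in blood neutrophils, and Cd68, at 181.1 and 235.3 FPKM, were somewhat lower in the nose. The part of such cells in the plexin and neuropilin values was not tested.

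Ephrin-A genes were the other group with high members, and summed to 50.4 FPKM in DP, 27.6 FPKM in nasal neutrophils and 0.087 FPKM in blood neutrophils. Ephrin-As are lipid-anchored ligands of EphA receptors, and ephrin-A5 and ephrin-A3 are made by olfactory axons in mice. Efna5 stood at 36.1 FPKM in DP, 5.02 FPKM in nasal neutrophils and 0.056 FPKM in blood neutrophils. DP was the high library, 7.18 times nasal neutrophils, a log2 ratio of 2.62, and the blood value rested on about 7.1 fragments. Efna3 went the other way, at 7.14 FPKM in DP, 16.5 FPKM in nasal neutrophils and 0.017 FPKM in blood neutrophils. Efna1 was at 6.67 FPKM in DP, 5.38 FPKM in nasal neutrophils and 0.014 FPKM in blood neutrophils, near equal in the nose, and its log2 ratio of 0.27 in DP over nasal neutrophils turned to -0.31 when centred and to -0.30 with upper-quartile scaling. The blood values of Efna3 and Efna1 amount to about 2.1 and 1.1 fragments, so no fold against blood is given. Efna1, Efna3 and Efna4 are consecutive genes on mouse chromosome 3, and their ratios of DP over nasal neutrophils were 1.24, 0.43 and 0.26, so the neighbours did not move as 1 unit. Efna4 was low, at 0.12 FPKM in DP, 0.46 FPKM in nasal neutrophils and 0 in blood.

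Among EphA receptors, Epha5 and Epha7 had the same order of libraries as Efna5. Epha5 stood at 2.88 FPKM in DP, 0.44 FPKM in nasal neutrophils and 0.011 FPKM in blood neutrophils, and Epha7 at 2.23 FPKM in DP, 0.58 FPKM in nasal neutrophils and 0.028 FPKM in blood neutrophils. DP was higher than nasal neutrophils by 6.53-fold for Epha5 and 3.87-fold for Epha7. Epha1 had a pattern of its own, at 0.63 FPKM in DP, 0.88 FPKM in nasal neutrophils and 3.70 FPKM in blood neutrophils. It was 1 of 3 members highest in blood, beside Epha8 and Unc5cl, which stayed at or under 0.13 FPKM. Of the other 6 EphA genes, Epha2 reached 0.42 FPKM in nasal neutrophils and the rest did not pass 0.15 FPKM. The 3 ephrin-B genes, transmembrane ligands, were lower in DP than in nasal neutrophils in each case, with Efnb1 the highest at 0.95 FPKM in DP, 1.14 FPKM in nasal neutrophils and 0.36 FPKM in blood neutrophils. The 5 EphB receptors stayed at or under 0.64 FPKM.

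Most olfactory neuron markers, 13 of 17, had more FPKM in DP than in nasal neutrophils, as did Efna5, Epha5 and Epha7 but not Efna3 or the ephrin-B genes. Most of all genes compared were also higher in DP, so that direction is not particular to the markers. The median log2 ratio was 0.57 over all genes compared and 1.13 over the 16 markers that passed the filter. As a ratio of FPKM, the marker sum was 1.96 times as high in DP as in nasal neutrophils, with single markers between 0.30 and 4.99 times and a median of 2.19. The ratios of Efna5 and Epha5 lay above that span, that of Epha7 within it, and that of Efna3, at 0.43, in its low part, between Rtp1 and Tubb3. The place of Epha5 depended on the measure. As log2 ratios of (FPKM + 1), Efna5, at 2.62, stayed above the highest marker, at 2.21, but Epha5, at 1.43, lay among the markers. The highest marker ratio was that of Gap43, a protein of growing axons in immature olfactory neurons, at 49.7 FPKM in DP, 9.96 FPKM in nasal neutrophils and 0 in blood. The ratio of Gng13, a G protein subunit of olfactory neurons, was next, with 217.1 FPKM in DP, 47.3 FPKM in nasal neutrophils and 0 in blood. Of the glial markers, Fabp7 stood at 62.1 FPKM in DP and 19.4 FPKM in nasal neutrophils, with 0 listed for blood. The part of neuronal or glial RNA in the ephrin and Eph values was not tested.

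**Figure D3:**
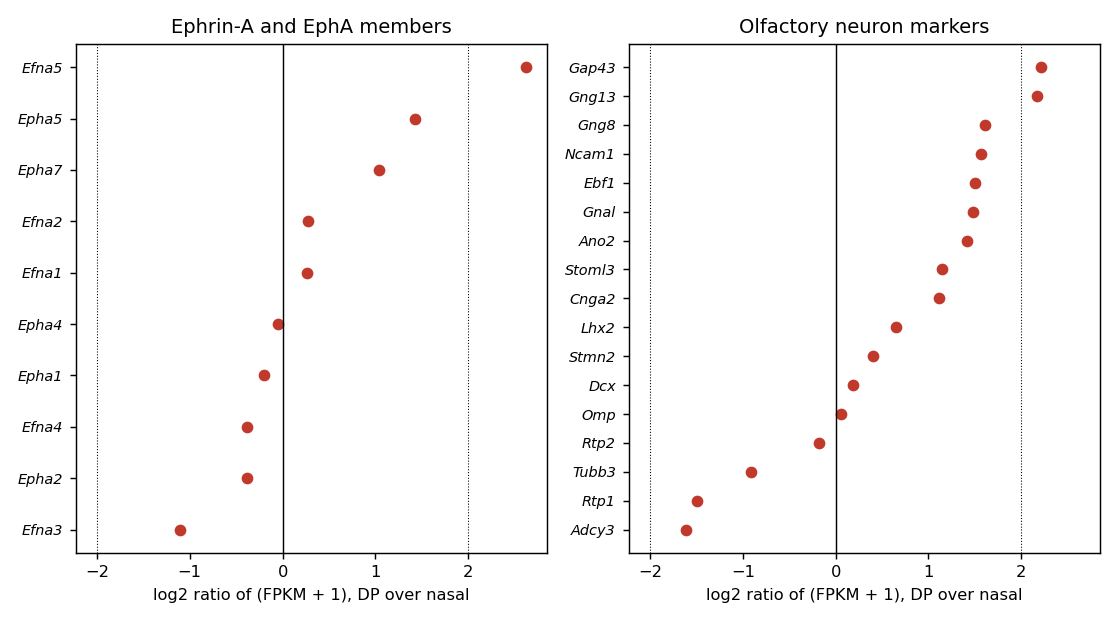
Log2 ratio of (FPKM + 1) of DP over nasal neutrophils for the ephrin-A and EphA members at 0.1 FPKM or more in a nasal library (left) and for 17 olfactory neuron markers (right), 1 point per gene; the solid line is 0 and dotted lines mark 4-fold. Efna5, at 2.62, lies beyond the highest marker, Gap43, at 2.21, while Efna3, at -1.11, lies among the markers that were lower in DP.

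Slits, netrins and their receptors were scarce in every library. The 3 Slit genes, secreted repellents, stayed at or under 0.21 FPKM and were all at 0 in blood. The Robo receptors were also all at 0 in blood. Robo2, which sorts olfactory axons in mice, stood at 0.85 FPKM in DP and 0.63 FPKM in nasal neutrophils, and its neighbour Robo1 at 0.31 FPKM in DP and 0.89 FPKM in nasal neutrophils. Robo4, an endothelial member, was at 0.20 FPKM in DP and 0.55 FPKM in nasal neutrophils, and Robo3 at 0 throughout. Netrin genes did not exceed 0.23 FPKM, the value of Ntn1 in DP. Of the Unc5 receptors, Unc5b was the highest, at 0.40 FPKM in DP, 0.81 FPKM in nasal neutrophils and 0.048 FPKM in blood neutrophils, and the others stayed at or under 0.11 FPKM. Unc50, which is no guidance gene, was the highest name match in DP, at 92.2 FPKM, against 21.6 FPKM in nasal neutrophils and 33.6 FPKM in blood neutrophils.

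**Figure D4:**
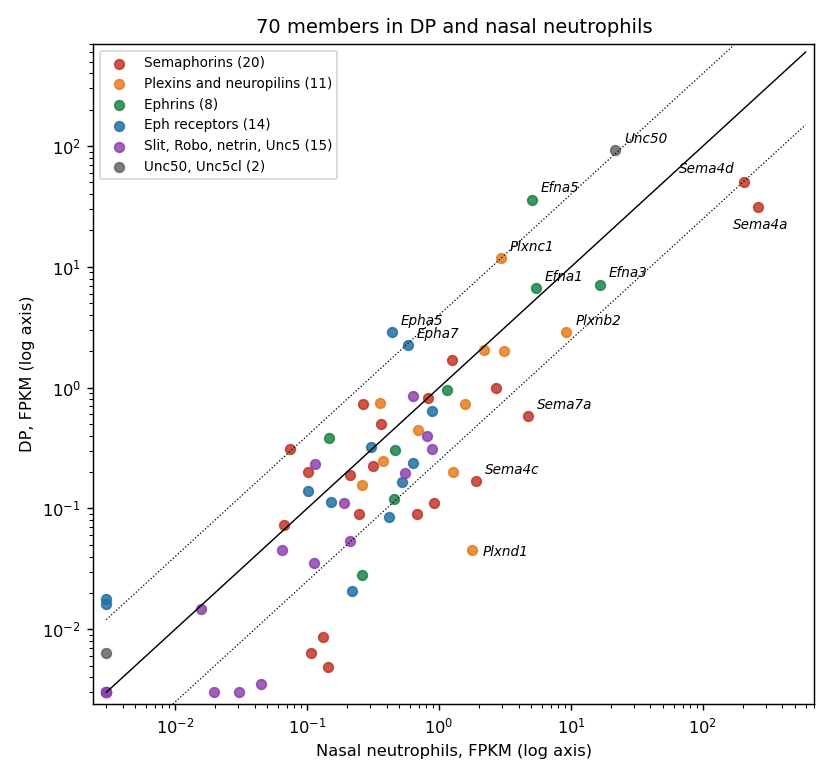
FPKM in DP (y axis) against nasal neutrophils (x axis) for all 70 members, both axes logarithmic, coloured by family with the number of members; the solid line is equality, dotted lines mark 4-fold, and values under 0.003 FPKM, 0 included, are drawn at 0.003. Of the labelled members, Efna5, Epha5, Plxnc1 and Unc50 lie on or above the upper dotted line. Sema4a, Sema4d, Sema7a, Sema4c and Plxnd1 lie on or below the lower one. Unlabelled low members, such as Sema3c above and Sema3g below, also lie past the lines.

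The comparison of DP with nasal neutrophils sets SiglecF-positive cells on day 2 against SiglecF-negative cells on day 1, both from the nose. Gate and day differ together in it and cannot be told apart. Of the 15 members compared, 2 were at least 4-fold higher in DP, Efna5 and Unc50, where 8.42% of all 10719 genes were. Sema4a was the 1 member at least 4-fold lower, where 3.62% of all genes were. The members' median log2 ratio was -0.20, and that of all genes compared was 0.57. Over all 70 members without a filter, 44 were lower and 22 higher in DP and 4 equal, with a median of -0.10 against 0.02 over all genes. Some members, such as Sema7a and Epha5, passed the filter only through the library where they were high, so a difference was favoured in advance. This did not hold for Efna5, Unc50 or Sema4a. With 1 library per group these counts describe and support nothing. With ratios centred on the median of all genes the split was 1 higher and 3 lower, as Unc50 fell short of the limit and Sema4d and Sema7a passed it. With ratios corrected for transcript length the higher members were Efna5 and Plxnc1, and Unc50 fell short.

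Nasal and blood neutrophils shared the sort gate and the day and differed in tissue. Between them, 6 of 15 members were at least 4-fold higher in the nose, namely Efna1, Efna3, Efna5, Plxnb2, Sema4d and Sema7a, where 13.1% of all genes were. No member was at least 4-fold lower, where 3.23% of all genes were. The median was 1.45 over the members and 0.41 over all genes. Plxnb2 and Sema7a passed the filter on low values through nasal neutrophils, where they were high, and with no filter the 6 were of 70 members, beside 6.06% of all genes. Of all 70 members, 60 were higher in the nose and 5 lower, with a median of 0.33 against 0.06 over all genes. Of the 6 called members, Sema4d and Sema7a were also well above 0 in blood, at 35.8 and 0.42 FPKM. The other 4 were at or under 0.056 FPKM in blood, where 8 of the 17 olfactory neuron markers were at 0.

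The comparison of DP with blood neutrophils differs in tissue, day and gate together. It called 3 of 15 members at least 4-fold higher, Efna1, Efna3 and Efna5, where 24.0% of all genes were, and 1 at least 4-fold lower, Sema4a, where 3.57% were. The median was 1.31 over the members and 0.95 over all genes. With centred ratios the split was 2 higher and 2 lower, Efna1 falling short and Epha1 passing the limit. The comparisons share libraries, so they are not separate results. Epha1 had a log2 ratio of -1.52, at 0.63 FPKM in DP and 3.70 FPKM in blood neutrophils, and Sema4d one of 0.49, at 50.8 FPKM in DP and 35.8 FPKM in blood neutrophils, which turned to -0.46 when centred and to -0.40 with upper-quartile scaling.

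**Figure D5:**
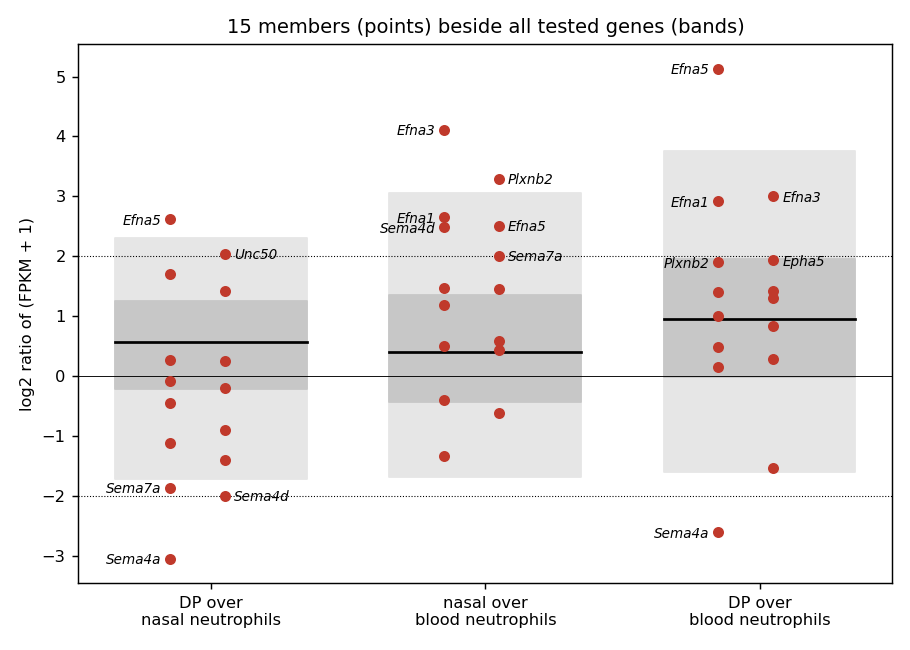
Log2 ratio of (FPKM + 1) of the 15 members with a mean of 1 FPKM or more (points, 1 per gene, spread sideways for legibility) in the 3 comparisons; light and dark bands span percentiles 5 to 95 and 25 to 75 of all 10719 genes compared, the black line is their median, and dotted lines mark 4-fold. Sema4a lies under the light band in both comparisons of DP, and Efna5 above it.

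Other genes of these pathways came from 5 lists of signalling partners, relatives and proteases. Of 48 plexin and neuropilin signalling genes with a row, 24 passed the filter. In DP against nasal neutrophils 1 of them was at least 4-fold higher and 1 lower, where 8.42% and 3.62% of all genes were. The higher one was Cd72, which encodes the lymphocyte receptor of Sema4d, at 105.7 FPKM in DP, 13.8 FPKM in nasal neutrophils and 2.44 FPKM in blood neutrophils. The 5 B cell markers had the other order, with a sum of 4.75 FPKM in DP, 43.5 FPKM in nasal neutrophils and 63.4 FPKM in blood neutrophils. The lower one was Rnd1, a small GTPase that binds plexins, at 14.9 FPKM in DP, 70.5 FPKM in nasal neutrophils and 47.7 FPKM in blood neutrophils. In nasal against blood neutrophils 7 of the 24 were higher and 1 lower, where 13.1% and 3.23% of all genes were. In DP against blood neutrophils 11 were higher and 2 lower, where 24.0% and 3.57% of all genes were. Among them Dpysl2, which carries semaphorin signals to microtubules, stood at 55.3 FPKM in DP, 28.3 FPKM in nasal neutrophils and 0.15 FPKM in blood neutrophils. Itgb1, the beta1 integrin that Sema7a binds, stood at 26.1 FPKM in DP, 38.8 FPKM in nasal neutrophils and 3.26 FPKM in blood neutrophils. Tyrobp, an adaptor that works with Trem2 and plexin A1, was the 1 lower in nasal than in blood neutrophils, at 2279 FPKM in DP, 2224 FPKM in nasal neutrophils and 10144 FPKM in blood neutrophils.

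Of 34 Eph and ephrin signalling genes with a row, 18 passed the filter and 0 were at least 4-fold higher or lower in any of the 3 comparisons. Beside this and the lists that follow, 8.42% of all genes were higher and 3.62% lower in DP against nasal neutrophils. The shares were 13.1% and 3.23% in nasal against blood neutrophils, and 24.0% and 3.57% in DP against blood neutrophils. Of 22 Slit and Robo signalling genes, 14 passed, with 0 higher and 1 lower in DP against nasal neutrophils, 5 higher and 0 lower in nasal against blood neutrophils, and 2 and 0 in DP against blood neutrophils. All 4 syndecan genes, heparan sulphate carriers that Slits can bind, were among the 5. Sdc4 stood at 55.2 FPKM in DP, 45.7 FPKM in nasal neutrophils and 0.30 FPKM in blood neutrophils, and Sdc3, the lower one in DP, at 1.03 FPKM in DP, 11.0 FPKM in nasal neutrophils and 0.039 FPKM in blood neutrophils. Of 15 genes of the netrin branch with a row, 4 passed, and Ntng2, a membrane-anchored netrin relative, stood at 0.38 FPKM in DP, 12.2 FPKM in nasal neutrophils and 1.01 FPKM in blood neutrophils, a log2 ratio of -3.25 in DP over nasal neutrophils. It was the 1 gene of that list called in that comparison. Of 8 shedding proteases, 5 passed, and Furin, which cleaves class 3 semaphorins, stood at 7.11 FPKM in DP, 57.6 FPKM in nasal neutrophils and 8.17 FPKM in blood neutrophils. It was the 1 protease at least 4-fold lower in DP than in nasal neutrophils, and 0 were higher. Adam10, which sheds ephrins, stood at 47.6 FPKM in DP, 21.8 FPKM in nasal neutrophils and 18.3 FPKM in blood neutrophils, within 4-fold in each comparison.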

How the data were processed

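The authors deposited 1 table per library with 1 value per gene. The values are taken as FPKM because the deposited file headers use the Cufflinks column name tracking_id and the submitters' processing notes list Cufflinks 2.1.1, Bowtie2 2.1.0, TopHat2 2.0.8 and genome build mm9. The header itself does not name the unit, and no source used here gives the settings. FPKM are estimates, not counts, so no count test was used. Groups follow the sample titles. With 1 library per group no test or error was possible.

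Values above 0 and below 1e-06 FPKM were set to 0. There were 32 for DP, 20 for nasal and 43 for blood neutrophils. Ratios used a pseudocount of 1 and a mean of 1 FPKM or more, and were computed with Python 3.11.15 and pandas 2.3.3 and tested on simulated data. An exact 0 can be a failed estimate. Depth came from the steps of FPKM times length over 1972 genes with 1 long transcript (GENCODE M21) and is approximate, least clear in DP, and member fragment numbers rest on the median RefSeq-linked transcript length. Promoter windows were matched by symbol and lack the 50 bases after each start. Members with a mean of 1 FPKM or more are given with their values, as are the highest of each subfamily. The members and lists were chosen with earlier results of these data known. Lower members named beyond that, and the promoters shown, were picked after their values were seen.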

Additional observations from a re-analysis of the deposited data

How the results depend on the processing

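No paired analysis was possible because each group has 1 library. Of 60 recomputed counts of members past 4-fold, 43 stayed within 1.5 times of the reported value. Of 30 recomputed medians 28 stayed inside the order-statistic interval of the reported one. That interval comes from the spread of the 15 member genes, not of replicates. It is wide, so lying inside it does not show that a median held. In DP over nasal neutrophils the median was -0.20 as reported, -0.78 with centring and 0.30 among members averaging 5 FPKM or more. In DP over blood neutrophils it was 1.31 as reported and 0.35 with centring. The values outside these limits were as follows, and beyond what each setting itself changes the cause was not tested. In DP over nasal neutrophils, members higher numbered 1 with a pseudocount of 5, with ratios centred on the median, with upper-quartile scaling and without Unc50 and Unc5cl, and 4 at a 2-fold threshold. Members lower numbered 3 with a pseudocount of 0.1, with all libraries scaled to 1 sum, with centring and with upper-quartile scaling, where Sema4d and Sema7a joined Sema4a, and 5 at 2-fold. In nasal over blood neutrophils, members higher numbered 2 with a pseudocount of 5 and 3 among members averaging 5 FPKM or more, and 1 was lower at 2-fold; with no filter the median was 0.33. In DP over blood neutrophils, members higher numbered 6 with a pseudocount of 0.1, 1 with 5, 5 with all libraries scaled to 1 sum, 9 at 2-fold and 5 with ratios corrected for transcript length. Members lower numbered 2 with a pseudocount of 0.1, with centring, with upper-quartile scaling and at 2-fold, and with no filter the median was 0.22. Length correction and the omission of Unc50 and Unc5cl were added after the data were seen. Of 225 recomputed ratios of single members, 143 kept their side of the limit and moved by less than 1.5-fold. No ratio past 4-fold changed sign, but 11 smaller ones did, all with centring or upper-quartile scaling: Efna1 and Sema4b in DP over nasal neutrophils, and Sema4b, Sema4d, Sema6b and Sema7a in DP over blood neutrophils. With length correction Plxnc1 took the place of Unc50 among the 2 members higher in DP than in nasal neutrophils. Efna5 was at least 4-fold higher and Sema4a lower in DP over nasal neutrophils in all settings run. Depth limits the low members: in nasal neutrophils 23 of 70 rested on fewer than 10 fragments, in DP 18 and in blood neutrophils 50.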
